A study of Rattus norvegicus with 16 samples.

Results

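Inmt, Nnmt, Gamt, Tpmt, Hnmt and As3mt encode enzymes that move a methyl group from S-adenosylmethionine to a small molecule, and their transcripts were followed here in rat liver. These 6 genes, of 17168 in the tables, were picked by name, and Inmt entered because earlier results of these data showed it high in the chow libraries numbered 4. The levels of Inmt are therefore given as a description with no test. Hnmt was at 0 in every library, and the other 4 members (Nnmt, Gamt, Tpmt and As3mt) were tested among 11162 genes.

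S-adenosylmethionine, made from methionine and ATP, is the methyl donor of most methylation reactions, and the liver is its main site of synthesis and use. Each transfer leaves S-adenosylhomocysteine, which inhibits methyltransferases and is split to adenosine and homocysteine. Nnmt methylates nicotinamide, Gamt makes creatine from guanidinoacetate, Tpmt methylates thiopurine drugs, Hnmt inactivates histamine, As3mt methylates inorganic arsenic, and Inmt methylates tryptamine and related amines.

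The libraries came from liver of Sprague Dawley rats aged 20 weeks. There were 4 groups with 4 libraries each: tspo -/- (Tspo knockout) on a methionine-choline deficient (MCD) diet, wild type on MCD, Tspo knockout on chow, and wild type on chow. All animals ate ordinary food up to 12 weeks of age and the group's diet for the 8 weeks after that. The product of Tspo is a translocator protein in the outer membrane of mitochondria, and MCD feeding is a model of fatty liver with inflammation. All samples are labelled as rat, although mice are named in the title. The sources used here do not give which part of Tspo was removed or whether each library is from 1 animal. The p-values below measure the spread between libraries.

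Library totals ran from 8745756 to 15762650 counts. Levels are in CPM (counts per 1e06 of the TMM-adjusted library size) and are not compared between genes because gene lengths were not used. Tspo was at 4.17, 1.66, 1.02 and 1.21 CPM in the knockout MCD libraries 1 to 4, against 7.63 to 9.33 CPM in the wild type on MCD. On chow Tspo was at 1.14, 0.656, 1.29 and 4.42 CPM in the knockout, against 3.61 to 5.23 CPM in the wild type. The library labelled knockout chow 4 was thus within the wild type range. That library, wild type chow 4 and knockout MCD 1 stood apart from the other 13 on the second principal component, at 63.7, 33.0 and 44.2 against -43.2 to 9.12. A transcript length index, the log2 CPM averaged over 14 long genes less that of 25 short ones, set to 0 for the mean of wild type chow, was -1.91, -0.70 and -0.95 in these 3 libraries. In the others the index was 1.14 to 1.84 on MCD and -0.16 to 0.33 on chow. The index thus went with the diet, so a model that holds it cannot fully separate index from diet. The 4 libraries numbered 4 carry sample numbers 13 to 16 in the labels and all others 1 to 12, and no label names a batch. Hepatocyte markers summed to 81063 to 96106 CPM in the knockout and 74615 to 110142 CPM in the wild type on MCD. On chow the same 8 markers summed to 160788 to 204708 CPM in the knockout and 150367 to 177302 CPM in the wild type.

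Promoters are shown for Inmt, which has the pattern that singled it out, for Gnmt, a methyltransferase among the genes most like Inmt, and for Gamt and Tpmt, of which Gamt fell on MCD and Tpmt did not pass the test. The sequences are those of RefSeq on build GRCr8, from 250 bases before to 50 after the transcript start, on the strand of the gene. Capitals mark 3 motifs, searched on both strands, so that a reverse complement is in capitals too. The TATA box was searched as TATAAA. The letters CCAAT stood for the CCAAT box. The GC box was searched as GGGCGG. No match overlapped another. The windows are chr4:85652706-85653005 on the minus strand for Inmt, chr9:21752032-21752331 on the plus strand for Gnmt, chr7:10099034-10099333 on the plus strand for Gamt and chr17:17850176-17850475 on the plus strand for Tpmt.
Inmt: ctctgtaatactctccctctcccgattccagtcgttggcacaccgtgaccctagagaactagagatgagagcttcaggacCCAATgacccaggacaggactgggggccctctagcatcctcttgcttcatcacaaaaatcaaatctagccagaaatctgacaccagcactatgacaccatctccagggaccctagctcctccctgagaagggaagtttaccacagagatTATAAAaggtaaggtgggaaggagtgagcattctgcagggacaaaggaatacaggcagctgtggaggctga
Gnmt: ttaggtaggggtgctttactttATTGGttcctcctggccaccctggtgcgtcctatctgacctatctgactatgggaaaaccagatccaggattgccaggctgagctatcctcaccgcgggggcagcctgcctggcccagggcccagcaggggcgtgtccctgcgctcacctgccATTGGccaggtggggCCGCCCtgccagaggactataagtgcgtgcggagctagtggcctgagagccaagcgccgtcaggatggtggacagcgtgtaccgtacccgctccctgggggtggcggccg
Gamt: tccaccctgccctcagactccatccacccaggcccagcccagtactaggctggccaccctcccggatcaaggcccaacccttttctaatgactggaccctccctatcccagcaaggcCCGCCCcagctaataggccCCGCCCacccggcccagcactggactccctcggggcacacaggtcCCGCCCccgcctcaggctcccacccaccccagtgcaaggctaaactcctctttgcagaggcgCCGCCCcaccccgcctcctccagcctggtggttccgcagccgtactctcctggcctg
Tpmt: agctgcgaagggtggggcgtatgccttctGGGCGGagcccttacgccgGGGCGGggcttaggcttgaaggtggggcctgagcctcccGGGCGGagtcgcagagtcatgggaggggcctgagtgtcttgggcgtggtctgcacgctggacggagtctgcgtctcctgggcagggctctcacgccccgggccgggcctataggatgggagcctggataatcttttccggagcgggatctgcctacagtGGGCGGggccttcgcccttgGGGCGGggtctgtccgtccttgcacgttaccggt
The Inmt window held 1 TATAAA, which begins 21 bases before the start, and 1 CCAAT, 170 bases before it. The Gnmt window held 2 CCAAT and 1 GGGCGG. Gamt had 4 GGGCGG and Tpmt 5, with no TATAAA or CCAAT in these windows. Of 33469 rat promoters of this length 14.2% held TATAAA, 37.5% held CCAAT and 33.1% held GGGCGG. The base composition differed as well, with 51.0% G or C for Inmt, 64.0% for Gnmt and 68.0% for both Gamt and Tpmt. These matches describe the letters only, and no binding was measured.

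Inmt, the amine methyltransferase, was at or near 0 on MCD, between 0.396 and 1.25 CPM in 6 chow libraries and far higher in both chow libraries numbered 4. In the knockout on MCD the levels were 0, 0.0572, 0 and 0.110 CPM in libraries 1 to 4. All 4 wild type MCD libraries were at 0. In the knockout on chow libraries 1 to 3 had 1.25, 0.875 and 0.396 CPM and the library labelled knockout chow 4 had 203 CPM. Wild type chow libraries 1 to 3 had 1.02, 1.12 and 0.867 CPM and library 4 had 33.4 CPM. Both high libraries carried the number 4, and neither MCD library of that number was high.

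The high values rest on 1514 counts in the library labelled knockout chow 4 (95% Poisson interval 193 to 213 CPM) and on 351 counts in wild type chow 4 (30.0 to 37.1 CPM). These intervals, like those below, cover counting error only. Together these 2 libraries held 97.1% of the 1920 Inmt counts. The level in the library labelled knockout chow 4 was 6.07 times that in wild type chow 4, which in turn was 26.7 times the highest of the other 14 libraries. The mean over a chow group therefore reflects 1 library, at 51.3 ± 101 CPM in the knockout and 9.10 ± 16.2 CPM in the wild type (SD, n = 4 each). Without number 4 the chow means were 0.840 ± 0.428 CPM in the knockout and 1.00 ± 0.126 CPM in the wild type (SD, n = 3 each).

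The lower level of Inmt on MCD was also present without the libraries numbered 4 of the chow groups. The knockout had 3 counts over its 4 MCD libraries (0.0471 CPM, Poisson interval 0.00971 to 0.138), against 23 counts over 3 chow libraries (0.820 CPM, 0.520 to 1.23). In the wild type 0 counts on MCD stood against 29 counts over 3 chow libraries (1.02 CPM, 0.682 to 1.46). These wild type chow livers were at 22.5 times a limit of 3 counts over the wild type MCD group (0.0453 CPM). That ratio leaves out the counting error on both sides. The libraries of the diets did not overlap in either genotype, with MCD below chow, as for 14% of all tested genes in the knockout and 17.9% in the wild type. Inmt was chosen for its level in the chow libraries numbered 4 and passed the low-count filter through chow libraries alone. Its order, intervals and ratio are thus a description and no support for a diet effect. In bulk liver, fewer cells of a type and less RNA per cell cannot be told apart.

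Of the 11162 genes 1316 (11.8%) were higher in both chow libraries numbered 4 than in all the other 14. The gap was at least 1 on the log2 scale for 43 genes (0.385%) and at least 2 for Inmt alone, with a gap of 4.58. Since Inmt was chosen for its level in these libraries, its place in this order is a description only. The next were Sds, which encodes serine dehydratase, with 1.86, Lrtm2 with 1.80, the cytochrome P450 Cyp3a9 with 1.79, and Cth, the last enzyme of cysteine synthesis from methionine, with 1.72. Sds was at 157 CPM in the library labelled knockout chow 4 and 104 CPM in wild type chow 4, and at no more than 28.5 CPM in any other library. Among the members Nnmt was also highest in these 2 libraries, with a gap of 0.26, at rank 548. Gamt, As3mt and Tpmt were not, with gaps of -0.23, -0.45 and -1.05.

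Markers of other tissues and of other liver cells are given beside these levels. The 5 lung epithelium markers summed to 0.227 to 0.536 CPM in the knockout and 0.285 to 0.837 CPM in the wild type on chow, with Sftpb at 0 in every library. On MCD they summed to 0.386 to 0.946 CPM in the knockout and 0.326 to 0.908 CPM in the wild type. Skeletal muscle markers summed to at most 0.722 CPM with Myh7 at 0, pancreas markers to at most 7.22 CPM with Prss1 and Pnlip at 0, and fat markers to at most 24.8 CPM with Lep at 0. The fibroblast and stellate cell sum was 513 CPM in the library labelled knockout chow 4 and 442 CPM in wild type chow 4, within the 421 to 613 CPM of the other chow libraries. None of the 10 marker lists was above all other libraries in both chow libraries numbered 4. The red blood cell sum was 4532 CPM in the library labelled knockout chow 4, the highest of all, and 1413 CPM in wild type chow 4, against 454 to 1587 CPM in the other chow libraries. Its part in the Inmt level was not tested.

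**Figure D1:**
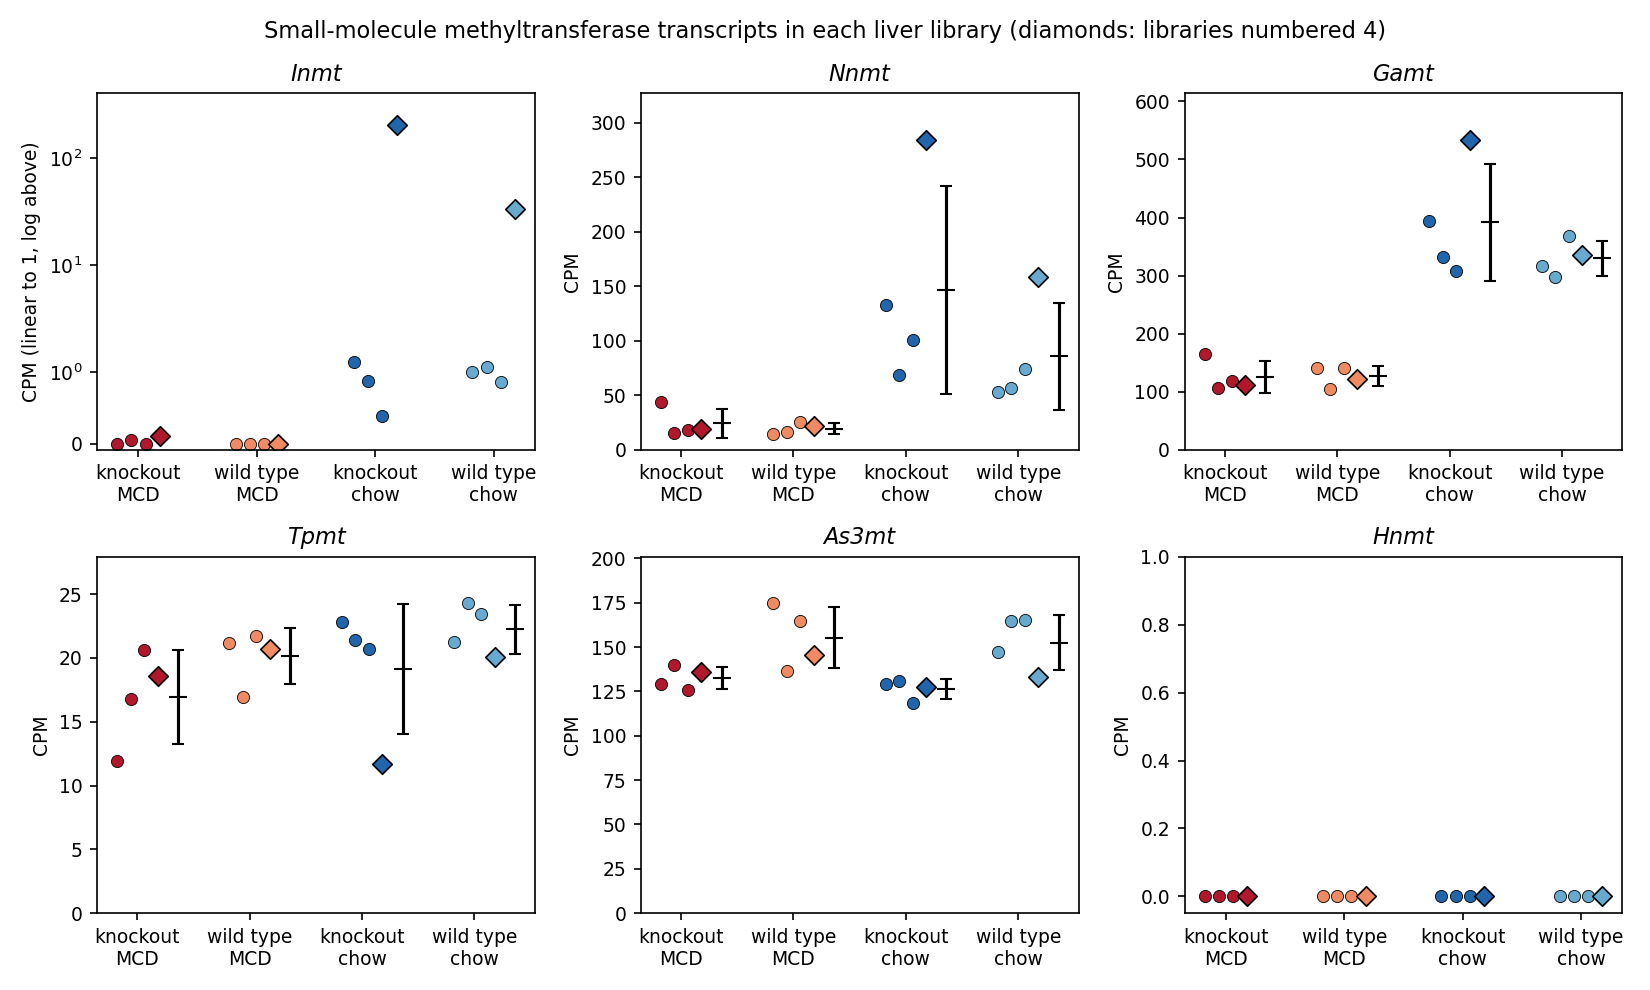
Levels of the 6 members in each of the 16 libraries, in CPM, by group. Points are libraries, diamonds those numbered 4, and bars the group mean ± SD (n = 4; drawn for Nnmt, Gamt, Tpmt and As3mt). The Inmt axis is linear to 1 CPM and logarithmic above, and the 2 chow diamonds sit at 203 and 33.4 CPM, while Hnmt is at 0 throughout.

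By Pearson correlation of log2 CPM over the 16 libraries, the genes most like Inmt among 7973 with a mean of at least 5 CPM were Prodh (r = 0.972), Gcdh (0.966), Hpd (0.956), Ivd (0.954), Gnmt (0.949), Cyp3a9 (0.946), Txndc17 (0.943) and Gpld1 (0.942). Prodh starts proline breakdown, Gcdh acts in lysine and tryptophan breakdown, Hpd in tyrosine breakdown and Ivd in leucine breakdown. Without both chow libraries numbered 4 the same correlations were 0.819 to 0.911 over 14 libraries. These libraries share a diet difference and the libraries that stood apart, and the values are a description. Gnmt, which methylates glycine and so buffers the supply of S-adenosylmethionine, was at 2448 CPM in the library labelled knockout chow 4 and 917 CPM in wild type chow 4. In the other chow libraries Gnmt was at 230 to 291 CPM in the knockout and 191 to 256 CPM in the wild type. Hpd was at 7566 CPM in the library labelled knockout chow 4 and 3193 CPM in wild type chow 4, and its next highest library had 1703 CPM. These genes were picked by their correlation with Inmt, so their high values where Inmt was high follow in part from the choice. Their factors there were smaller than that of Inmt.

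**Figure D2:**
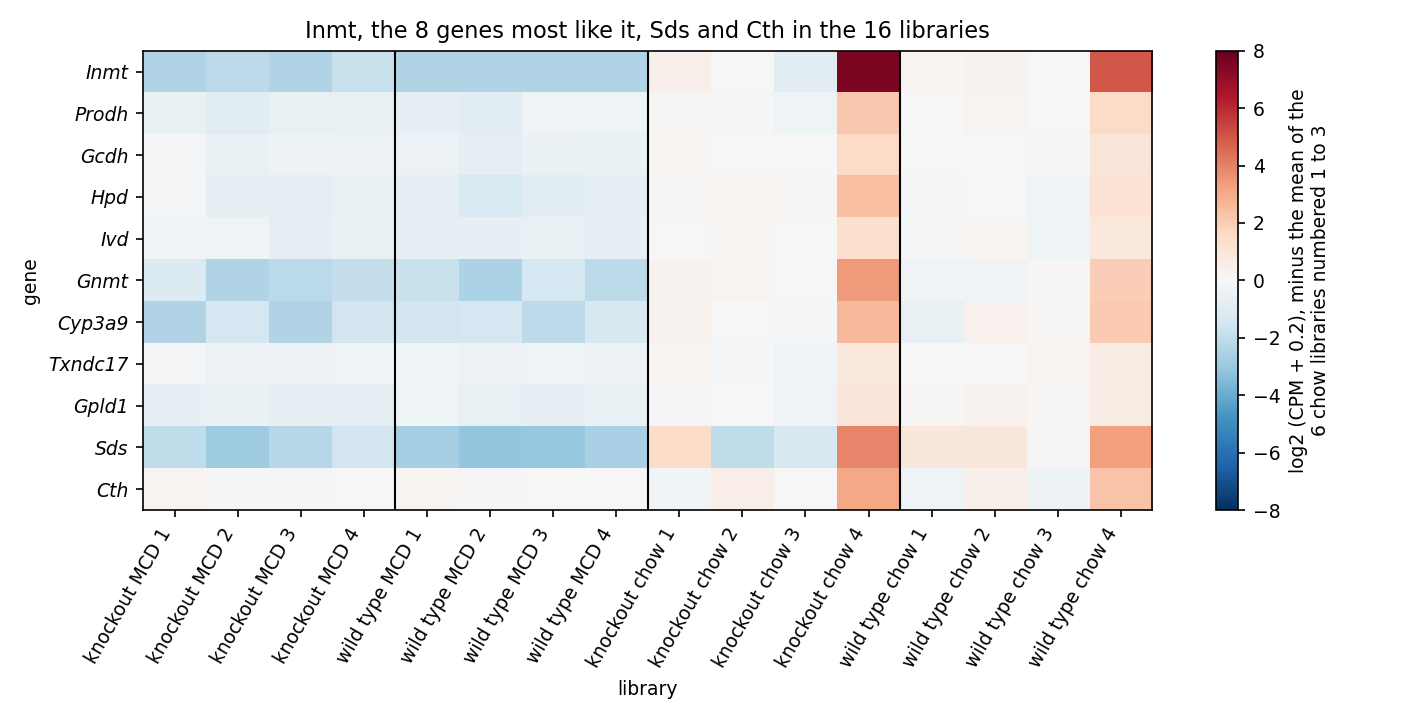
Heat map of Inmt, the 8 genes most like it, and Sds and Cth (rows) in the 16 libraries (columns, grouped by genotype and diet). Colour is log2 (CPM + 0.2) less the mean of the 6 chow libraries numbered 1 to 3. The darkest red cells are Inmt in both chow libraries numbered 4, and every other row is also red there. The rows were picked by likeness to Inmt or by high levels in those libraries.

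Nnmt, the nicotinamide methyltransferase, fell on MCD in both genotypes, with log2 folds of -2.60 ± 0.47 in the knockout and -2.14 ± 0.46 in the wild type (edgeR quasi-likelihood test, adjusted p = 0.000574 and 0.00241; ± is the SE). In the knockout the levels were 43.7, 15.6, 18.3 and 19.2 CPM in MCD libraries 1 to 4, against 133, 68.1, 101 and 284 CPM in chow libraries 1 to 4. The wild type had 14.5, 16.1, 25.4 and 21.6 CPM on MCD, against 53.2, 56.4, 74.3 and 159 CPM on chow. The diets did not overlap in either genotype (MCD lay below chow for 14% of all tested genes in the knockout and 17.9% in the wild type), and the number 4 library was the highest of each chow group. The knockout averaged 24.2 ± 13.1 CPM on MCD and 146 ± 95.7 CPM on chow, and the wild type 19.4 ± 5.02 CPM on MCD and 85.6 ± 49.5 CPM on chow (SD, n = 4 each). On MCD Nnmt was thus at 0.165 of its chow level in the knockout and 0.227 in the wild type.

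The 3 libraries that stood apart were also the highest for Nnmt in their groups. Without them the log2 fold of Nnmt was -2.51 in the knockout and -1.65 in the wild type (edgeR, adjusted p = 4.58e-06 and 5.25e-05). With the transcript length index in the model, an alternative added after seeing the data, it was -1.51 in the knockout and -0.98 in the wild type (adjusted p = 0.00132 and 0.0156). Nnmt was called lower in all 28 alternatives in each genotype.

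Gamt, which completes creatine synthesis, fell on MCD with log2 folds of -1.64 ± 0.20 in the knockout and -1.37 ± 0.20 in the wild type (edgeR, adjusted p = 2.44e-05 and 0.000116). In the knockout Gamt was at 165, 106, 118 and 112 CPM in MCD libraries 1 to 4, against 393, 332, 307 and 534 CPM on chow. Wild type livers had Gamt at 141, 105, 142 and 121.5 CPM on MCD, against 316, 298, 369 and 335 CPM on chow. The spread within groups was small beside the gap, and the highest MCD library (165 CPM) lay below the lowest chow library (298 CPM). Within a genotype, all MCD libraries lay below all chow libraries for 14% of all tested genes in the knockout and 17.9% in the wild type. Wild type chow 4, high for Inmt and Nnmt, lay between the others of its group for Gamt. On MCD Gamt was at 0.320 of its chow level in the knockout and 0.387 in the wild type, and it was called lower in all 28 alternatives in each genotype.

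With Gamt and Nnmt, 2 of the 4 tested members were lower on MCD and 0 were higher in each genotype. Among all genes tested 18.5% were called lower and 21.9% higher in the knockout, and 15.9% lower and 18.2% higher in the wild type. With library totals in place of TMM factors the same 2 members were lower and As3mt was higher in each genotype. The median log2 fold of the 4 members was -0.91 in the knockout and -0.76 in the wild type, beside 0.041 and -0.0023 over all genes. Hepatocyte marker sums, which rest on TMM-adjusted library sizes, were lower on MCD too, as given above. Their part in these falls was not tested. TMM factors were 1.14 to 1.35 on MCD and 0.64 to 1.00 on chow. How far the marker sums depend on them was not tested.

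Tpmt, the thiopurine methyltransferase, did not pass the test for diet, with a log2 fold of -0.18 (95% interval -0.60 to 0.25) in the knockout and -0.14 (-0.57 to 0.28) in the wild type (edgeR, adjusted p = 0.499 and 0.601). In the knockout Tpmt was at 12.0, 16.8, 20.6 and 18.55 CPM in MCD libraries 1 to 4, against 22.8, 21.4, 20.7 and 11.6 CPM on chow. The wild type had 21.2, 16.9, 21.7 and 20.7 CPM on MCD, against 21.2, 24.3, 23.4 and 20.1 CPM on chow. The lowest values were in the library labelled knockout chow 4 and in knockout MCD 1, and each diet's range overlapped the other's. With the transcript length index in the model Tpmt was called lower on MCD, with log2 folds of -0.55 in the knockout and -0.54 in the wild type (adjusted p = 0.0253 and 0.0293). With library totals in place of TMM factors its sign turned, to 0.54 in the knockout and 0.39 in the wild type (adjusted p = 0.0666 and 0.203).

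As3mt, the arsenic methyltransferase, did not pass the test for diet either, with a log2 fold of 0.07 (95% interval -0.20 to 0.34) in the knockout and 0.03 (-0.25 to 0.30) in the wild type (edgeR, adjusted p = 0.676 and 0.891). In the knockout As3mt was at 129, 140, 126 and 136 CPM in MCD libraries 1 to 4, against 129, 131, 118 and 127 CPM on chow. As3mt in the wild type was at 175, 136, 165 and 146 CPM on MCD, against 147, 165, 165 and 133 CPM on chow. The libraries that stood apart for Inmt and Nnmt were not the highest for As3mt in any group. With library totals alone As3mt was called higher on MCD, with log2 folds of 0.79 in the knockout and 0.55 in the wild type (adjusted p = 0.000392 and 0.00753), while the median of all genes then stood at 0.77 in the knockout and 0.53 in the wild type.

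Hnmt, which methylates histamine, had 0 counts in all 16 libraries, as did 2858 of the 17168 genes. At these depths 0 counts allow a level of up to 0.141 to 0.433 CPM, depending on the library. No fold is given for it.

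**Figure D3:**
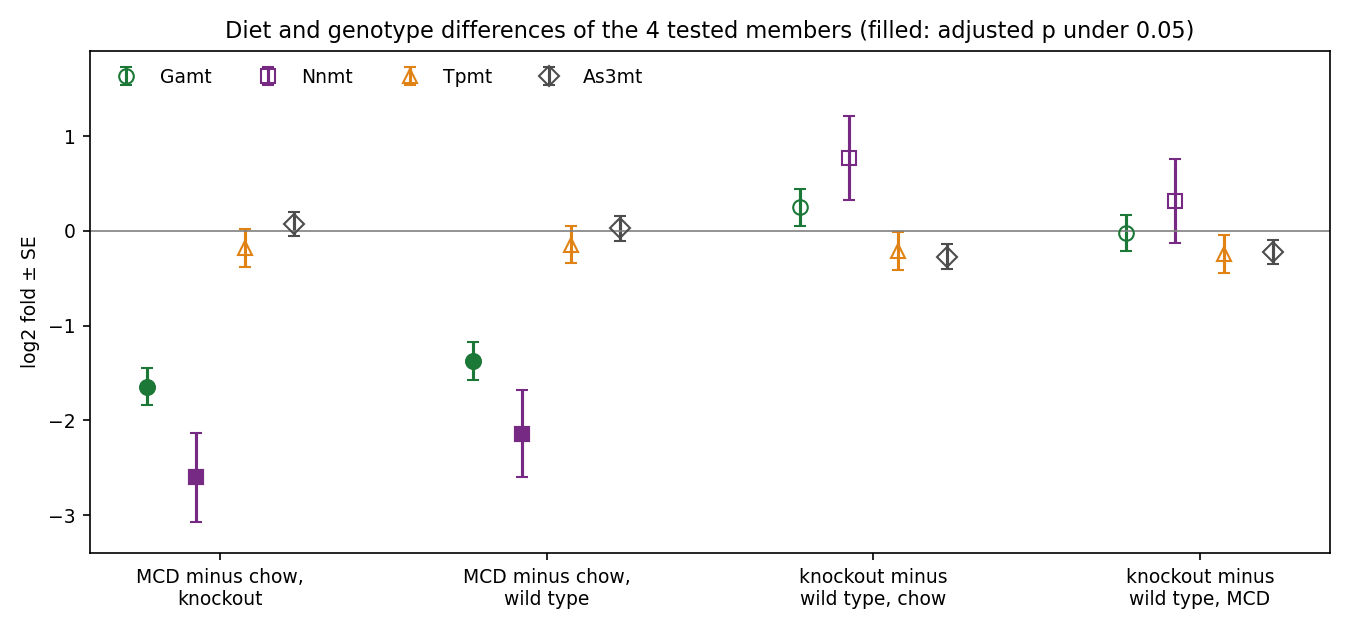
Log2 folds (± SE) of Gamt, Nnmt, Tpmt and As3mt for MCD minus chow in each genotype and for knockout minus wild type on each diet, from the edgeR fit of all 16 libraries. Filled symbols have an adjusted p under 0.05, which holds for Gamt and Nnmt in both diet comparisons, at -1.64 and -2.60 in the knockout and -1.37 and -2.14 in the wild type.

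Between genotypes none of the 4 tested members was called on chow, where 0.00896% of all genes were called (1 gene by edgeR, 14 by DESeq2, and 1152 at an unadjusted p under 0.05). On MCD 0 of the 4 were called, as were 0% of all genes by edgeR and 0 by DESeq2 (81 at an unadjusted p under 0.05). The unadjusted p was not under 0.05 for any of the 4 in either comparison. Knockout over wild type, the log2 fold on chow was 0.77 (95% interval -0.16 to 1.71) for Nnmt, 0.25 (-0.16 to 0.66) for Gamt, -0.21 (-0.64 to 0.21) for Tpmt and -0.27 (-0.54 to 0.00087) for As3mt. On MCD it was 0.31 (-0.63 to 1.26) for Nnmt, -0.02 (-0.43 to 0.39) for Gamt, -0.25 (-0.67 to 0.18) for Tpmt and -0.23 (-0.50 to 0.05) for As3mt. All 8 intervals include 0, and that of As3mt on chow ends close to it. Tspo itself was not called, with log2 folds of -1.23 on chow (edgeR, adjusted p = 0.461) and -2.07 on MCD. Without the 3 libraries that stood apart it was called lower, at -1.92 on chow and -2.68 on MCD (adjusted p = 0.00462 and 4.87e-05). With the transcript length index in the model it was too, at -1.75 on chow and -2.65 on MCD (adjusted p = 0.0418 and 0.000217). Lack of a call therefore does not show that a gene is unchanged.

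Nnmt in the knockout over the wild type on chow depended on the library labelled knockout chow 4, whose Tspo level lay within the wild type range. Without it the log2 fold was 0.23 (adjusted p = 0.942), and without wild type chow 4 it was 1.26 (adjusted p = 0.132). On MCD the sign of Nnmt turned without knockout MCD 1, to -0.14 (adjusted p = 1.00). As3mt libraries of the knockout on chow (118 to 131 CPM) all lay below those of the wild type on chow (133 to 165 CPM), an order that 2.59% of all genes shared. Its adjusted p was 0.478, and 0.224 without both chow libraries numbered 4. On MCD As3mt averaged 133 ± 6.28 CPM in the knockout and 155 ± 17.4 CPM in the wild type (SD, n = 4 each), and the groups overlapped.

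No difference of the diet effect between genotypes was called for a tested member (0 of 4, and 0% of all genes, by edgeR; 1 gene by DESeq2; 330 at an unadjusted p under 0.05). The difference of the diet effects, knockout minus wild type, was -0.46 ± 0.63 for Nnmt, -0.27 ± 0.27 for Gamt, -0.03 ± 0.28 for Tpmt and 0.05 ± 0.18 for As3mt on the log2 scale.

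Over the 16 libraries Nnmt and Gamt varied together (r = 0.943), and Inmt correlated with Nnmt at 0.864 and with Gamt at 0.794. Tpmt and As3mt correlated at 0.44, and their correlations with the other 3 members lay between -0.36 and 0.07. These are descriptions over libraries that share the diet difference. The genes most like Nnmt were Cd302 (r = 0.986), Apoc2 (0.986) and Dbi (0.981), and Dbi encodes a binding protein of acyl-CoA that is also a ligand of Tspo. The genes most like Gamt were Fahd2a (0.990), Pxmp2 (0.990) and Prodh2 (0.989), and those most like Tpmt included Dctn5 (0.904) and Uhrf1bp1l (0.904). For As3mt the highest were lower, with Vrk3 at 0.774, Dhrs3 at 0.746 and Mum1 at 0.735.

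Among 7 other tested small-molecule methyltransferases, 5 were lower on MCD in the knockout and 4 in the wild type, and 0 were higher. With library totals alone the counts were 2 lower and 1 higher in the knockout and 1 lower in the wild type. Under that scaling the median log2 fold of all genes was 0.77 in the knockout and 0.53 in the wild type. All genes called for the diet then numbered 6853 in the knockout and 5314 in the wild type, here and for the lists below. With TMM factors the median log2 fold of the 7 was -0.71 in the knockout and -0.47 in the wild type, beside the all-gene medians given above. Of all genes tested 18.5% were called lower and 21.9% higher in the knockout, and 15.9% lower and 18.2% higher in the wild type.

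Gnmt fell with log2 folds of -3.59 ± 0.77 in the knockout and -2.64 ± 0.74 in the wild type (edgeR, adjusted p = 0.00194 and 0.0122). In the knockout it was at 111, 44.3, 51.9 and 62.2 CPM in MCD libraries 1 to 4, against 291, 270, 230 and 2448 CPM on chow. Wild type livers had Gnmt at 67.8, 40.2, 88.0 and 54.5 CPM on MCD, against 191, 193, 256 and 917 CPM on chow. The library labelled knockout chow 4 and wild type chow 4 again held the highest values. Without both, the log2 fold of Gnmt was -1.97 in the knockout and -1.77 in the wild type (edgeR, adjusted p = 0.000147 and 0.000308), and with the transcript length index in the model it was not called (adjusted p = 0.197 and 0.327). As the index went with the diet, that model cannot fully separate index from diet, here or for the genes below.

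Pemt, which methylates phosphatidylethanolamine to phosphatidylcholine, fell with log2 folds of -0.86 ± 0.16 in the knockout and -0.67 ± 0.16 in the wild type (edgeR, adjusted p = 0.000796 and 0.00533), and was not called with library totals alone (adjusted p = 0.458 and 0.552). Asmtl fell with log2 folds of -1.29 ± 0.23 in the knockout and -0.96 ± 0.23 in the wild type, and in the wild type the call was lost with library totals alone and with the index in the model. Coq3, a methyltransferase of ubiquinone synthesis, had a log2 fold of -0.66 ± 0.19 in the knockout, where it fell (edgeR, adjusted p = 0.0120), and of -0.37 ± 0.19 in the wild type (adjusted p = 0.135). Its sign turned with library totals alone, to 0.03 in the knockout and 0.15 in the wild type (adjusted p = 0.900 and 0.572), and without both chow libraries numbered 4 it was called lower in the wild type too, at -0.41 (adjusted p = 0.0302). Coq5, of the same route, was called lower in the knockout and Mettl7b in the wild type. None of these 3 was called when the diet effects of the genotypes were tested against each other. Pnmt and Asmt were too low to be tested.

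Of 12 tested genes that supply S-adenosylmethionine or clear S-adenosylhomocysteine, 2 were higher and 4 lower on MCD in the knockout, and 2 were higher and 3 lower in the wild type. With library totals alone 5 were higher and 1 lower in the knockout, and 2 were higher and 1 lower in the wild type. The list had a median log2 fold of -0.40 in the knockout and -0.24 in the wild type. Over all genes 18.5% were called lower and 21.9% higher in the knockout, and 15.9% lower and 18.2% higher in the wild type. Mat2a, the S-adenosylmethionine synthetase subunit found mainly outside normal liver, was at 67.9, 55.1, 44.2 and 32.8 CPM in the knockout on MCD against 8.29, 11.4, 9.70 and 23.3 CPM on chow. Wild type livers had Mat2a at 47.8, 73.2, 62.7 and 46.5 CPM on MCD against 14.7, 9.30, 9.97 and 10.4 CPM on chow. Mat2a rose by 1.93 ± 0.31 in the knockout and by 2.37 ± 0.31 in the wild type on the log2 scale (edgeR, adjusted p = 0.000214 and 5.4e-05), with no overlap between diets, MCD above chow, as for 17.6% of all tested genes in the knockout and 20.1% in the wild type. Mat1a, the synthetase of adult liver, had a log2 fold of -1.11 ± 0.32 in the knockout, where it fell (adjusted p = 0.0129), and of -0.84 ± 0.32 in the wild type (adjusted p = 0.0540). Its knockout call was lost with library totals alone (-0.32, adjusted p = 0.365), once the model held the index (-0.52, adjusted p = 0.308) and without the library labelled knockout chow 4 (-0.64, adjusted p = 0.0567). Without both chow libraries numbered 4 Mat1a was called lower in each genotype, at -0.64 in the knockout and -0.59 in the wild type (edgeR, adjusted p = 0.0209 and 0.0289).

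Bhmt2, which remethylates homocysteine, fell with log2 folds of -1.34 ± 0.16 in the knockout and -1.22 ± 0.16 in the wild type (edgeR, adjusted p = 2.2e-05 and 5.44e-05), under all 6 alternatives run for the lists. The other gene that rose was Mtr, methionine synthase, by 1.21 ± 0.31 in the knockout and 0.85 ± 0.30 in the wild type (adjusted p = 0.00576 and 0.0380). With the index in the model neither call of Mtr held, at 0.50 in the knockout and 0.14 in the wild type (adjusted p = 0.115 and 0.658), and without both chow libraries numbered 4 the one in the wild type was lost (0.68, adjusted p = 0.0506). Mtr and Mat1a were named after their values were seen. Adk, which clears adenosine, fell with log2 folds of -0.94 ± 0.18 in the knockout and -0.67 ± 0.18 in the wild type, and lost both calls with library totals alone and the wild type call with the index in the model.

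**Figure D4:**
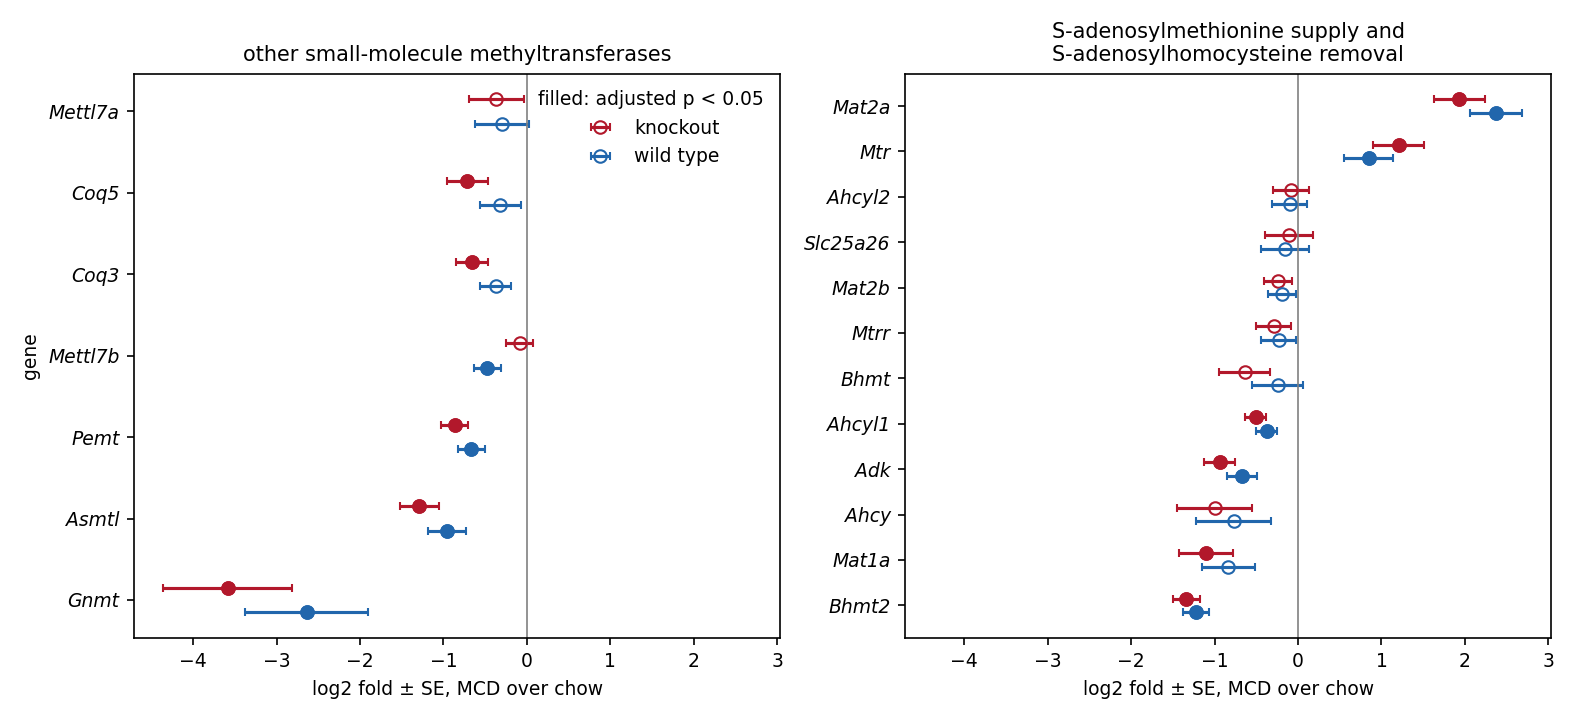
Log2 folds (± SE), MCD over chow, of 7 other small-molecule methyltransferases (left) and the 12 genes of S-adenosylmethionine supply and S-adenosylhomocysteine removal (right), with the knockout above the wild type for each gene. Filled symbols have an adjusted p under 0.05. Gnmt lies farthest to the left, at -3.59 and -2.64, and Mat2a farthest to the right, at 1.93 and 2.37.

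Around Nnmt, 12 of 19 tested genes of nicotinamide and NAD metabolism were lower and 1 higher on MCD in the knockout, and 11 were lower and 1 higher in the wild type. This split depended on scaling, since with library totals alone 1 was lower and 3 higher in the knockout, and 4 were lower and 3 higher in the wild type. The median log2 fold of all genes moved too, to 0.77 in the knockout and 0.53 in the wild type. The 19 genes had a median log2 fold of -0.66 in the knockout and -0.81 in the wild type with TMM factors. Of all genes 18.5% were then called lower and 21.9% higher in the knockout, and 15.9% lower and 18.2% higher in the wild type. Aox3, an aldehyde oxidase, was at 11.1 to 15.1 CPM in the knockout on MCD against 47.0 to 181 CPM on chow, and at 11.5 to 26.4 CPM in the wild type on MCD against 39.1 to 132 CPM on chow. Its fall, with log2 folds of -2.81 ± 0.42 in the knockout and -2.37 ± 0.42 in the wild type (edgeR, adjusted p = 0.000145 and 0.000577), was called under all 6 alternatives. Both chow libraries numbered 4, the highest for Nnmt, were the lowest of their groups for Aox3. Kynu and Kmo, enzymes of the kynurenine route from tryptophan, had log2 folds of -1.09 ± 0.19 and -0.66 ± 0.18 in the knockout and of -1.22 ± 0.19 and -0.97 ± 0.18 in the wild type, all called. Nmrk1, which phosphorylates nicotinamide riboside, fell with log2 folds of -1.27 ± 0.22 in the knockout and -1.21 ± 0.22 in the wild type. Kmo lost both calls with library totals alone, and Kynu and Nmrk1 the one in the knockout.

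Around Gamt, 3 of 5 tested genes of creatine supply and use were higher on MCD in the knockout and 1 in the wild type, and 0 were lower. Under library totals alone 4 were higher in the knockout and 3 in the wild type. The median of the 5 was 0.69 in the knockout and 0.36 in the wild type on the log2 scale. Over all genes 21.9% were called higher and 18.5% lower in the knockout, and 18.2% higher and 15.9% lower in the wild type. Slc6a8, the creatine transporter, rose by 1.07 ± 0.26 in the knockout, to 10.8 to 15.2 CPM on MCD against 4.32 to 10.8 CPM on chow (edgeR, adjusted p = 0.00493). Slc6a8 rose by 0.99 ± 0.26 in the wild type, to 9.58 to 16.4 CPM on MCD against 5.56 to 8.27 CPM on chow (adjusted p = 0.00875). Gatm, which makes guanidinoacetate, the substrate of Gamt, rose by 0.64 ± 0.20 in the knockout (adjusted p = 0.0180) and had a log2 fold of -0.03 ± 0.20 in the wild type (adjusted p = 0.910). With the index added to the model the knockout call of Gatm was lost.

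Around Hnmt, 3 of 6 tested genes of histamine handling were lower and 1 higher on MCD in the knockout, and 2 were lower and 1 higher in the wild type. These counts were 0 lower and 2 higher in each genotype with library totals alone. Over the 6 genes the median log2 fold was -0.51 in the knockout and -0.49 in the wild type. Of all genes 18.5% were called lower and 21.9% higher in the knockout, and 15.9% lower and 18.2% higher in the wild type. Aoc1, diamine oxidase, the other main enzyme of histamine breakdown, was at 8.55, 13.0, 3.13 and 11.3 CPM in the knockout on MCD against 0.109 to 0.495 CPM on chow. Aoc1 in the wild type was at 4.84, 8.16, 7.64 and 0.377 CPM on MCD against 0.0927 to 0.289 CPM on chow. Aoc1 rose by 4.83 ± 0.80 in the knockout and by 4.78 ± 0.86 in the wild type (edgeR, adjusted p = 0.000297 and 0.000718), from 11 and 7 counts in all on chow. The diets did not overlap within a genotype, MCD above chow, as for 17.6% of all tested genes in the knockout and 20.1% in the wild type. Wild type MCD 4 lay close to the chow libraries, though. Aldh2, an aldehyde dehydrogenase, fell with log2 folds of -0.94 ± 0.16 in the knockout and -0.99 ± 0.16 in the wild type, and lost both calls with library totals alone.

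Around Tpmt, 2 of 6 tested purine genes were higher on MCD in the knockout and 1 in the wild type, and 0 were lower. Those higher were 4 in the knockout and 3 in the wild type with library totals alone. The purine genes had a median log2 fold of 0.24 in the knockout and 0.14 in the wild type. Over all genes 21.9% were called higher and 18.5% lower in the knockout, and 18.2% higher and 15.9% lower in the wild type. These shares also stand beside the counts around As3mt and Inmt below, and small lists near them show little about a route. Impdh1, which makes xanthosine monophosphate on the way to guanine nucleotides, rose by 1.93 ± 0.28 in the knockout and by 1.85 ± 0.27 in the wild type (edgeR, adjusted p = 9.83e-05 and 0.000121). Around As3mt, 3 of 10 genes of arsenic handling were lower and 1 higher in the knockout, and 2 were lower and 2 higher in the wild type. Aqp9, a channel for glycerol and arsenite, fell with log2 folds of -1.27 ± 0.30 in the knockout and -1.11 ± 0.30 in the wild type (adjusted p = 0.00389 and 0.0103), and lost both calls with library totals alone and the wild type call with the index in the model. Aqp7, another such channel for glycerol, was at 0.994 to 1.82 CPM in the knockout on MCD against 0.134 to 0.328 CPM on chow, and at 0.706 to 2.37 CPM in the wild type on MCD against 0 to 0.289 CPM on chow. Aqp7 rose in each genotype (edgeR, adjusted p = 0.00312 and 0.00103) under all 6 alternatives, from only 8 counts over the knockout and 4 over the wild type chow libraries, too few for a firm fold. Txnrd2, the mitochondrial thioredoxin reductase, fell with log2 folds of -1.11 ± 0.19 in the knockout and -0.81 ± 0.19 in the wild type (adjusted p = 0.000386 and 0.00407), and lost both calls with library totals alone. With library totals alone no gene of the arsenic list was called lower, and 3 were higher in the knockout and 5 in the wild type. Its median log2 fold was -0.48 in the knockout and 0.04 in the wild type. Around Inmt, 2 of 5 tested genes of tryptophan and indole amines were lower in the knockout and 1 in the wild type, and 0 were higher. Scaled by library totals alone, 2 were lower and 1 higher in the knockout, and 1 was lower and 1 higher in the wild type. The median log2 fold of these 5 was -0.96 in the knockout and -0.55 in the wild type. Ddc, which makes tryptamine, a substrate of Inmt, fell with log2 folds of -1.28 ± 0.19 in the knockout and -1.34 ± 0.19 in the wild type (adjusted p = 0.000145 and 0.000117), under all 6 alternatives. Ddc was at 96.8 CPM in the library labelled knockout chow 4 and 94.2 CPM in wild type chow 4, within the 80.7 to 108 CPM of the other chow libraries, unlike Inmt. In both genotype comparisons and in the test of the diet effects against each other 0 genes of these 8 lists were called by edgeR over all 16 libraries. Of the 6 alternatives run for the lists, 1 changed this. Without the 3 libraries that stood apart, when 516 of all genes were called for the knockout over the wild type on chow, Aox1, an aldehyde oxidase, was lower in the knockout, at -1.46 on the log2 scale, and Aqp9 (0.51), Cyp2a1 (1.19), Itpa (0.43) and Maoa (0.52) were higher (adjusted p = 0.0250, 0.0469, 0.0177, 0.0444 and 0.0483).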

How the data were processed

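Poly(A) RNA of 16 rat liver libraries was sequenced from a stranded kit, per the labels' protocols. The first deposited table holds expected counts per gene, and the second, as deposited by the authors, holds a normalised signal, CPM scaled by TMM factors. Within each library the values above 0 of the second table are a fixed multiple of the rounded counts (tolerance 1e-06), and its columns sum to 752514 to 1546939. Bowtie2 2.1.0, RSEM 1.2.15 and rn6 are named, without roles, in the submitters' processing notes. The sources used here give neither the annotation nor the strand setting of the counting.

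Rounded counts were tested with edgeR 4.0.16 in R 4.3.3 (filterByExpr, TMM factors, 1 term per group, robust quasi-likelihood test, 12 residual degrees of freedom, common biological coefficient of variation 28%). Calls needed an adjusted p (Benjamini-Hochberg, over the 11162 genes kept) under 0.05. The 5 contrasts were the diet within each genotype, the genotype within each diet, and the interaction of diet and genotype. A prior count of 2 was used for log2 CPM. DESeq2 1.42.0, other scalings, no filter, fits of only the groups compared, a replicate block, a transcript length index and left-out libraries were alternatives. The planned count of members was over 5, but Hnmt had no counts, which left 4. The members and gene lists were chosen with earlier results of these data known. Named genes are all members, Tspo, up to 4 called genes per list by smallest p, the 8 genes most like Inmt and the 3 most like each other member, of which 1, and 1 gene of the lists, are not reported here. Some called list genes that this rule gives are covered by the counts alone. Within groups, the chi-square per gene between 2 libraries was 15.3 to 383.9, so none is a repeat of another. In simulated data for the knockout contrast on MCD (10924 genes), 58 of 100 genes changed 2-fold and 98 of 100 changed 4-fold were recovered, with 7 false calls. Only genes with a mean above 5 CPM were changed, and libraries were drawn independently. No diet difference and no libraries that stand apart were simulated, so recovery in the real comparison may differ. There Tspo, at a log2 fold of -2.07, was not called. Sequences and motif shares are from the RefSeq promoter table of GRCr8, and that build gave no position for any count.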

Additional observations from a re-analysis of the deposited data

Results flagged for a closer look

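Nnmt was at 43.7 CPM in knockout MCD 1, against 15.6 to 19.2 CPM in the other knockout MCD libraries. The gap to the nearest library, divided by the range of the group of 4, passed Dixon's critical value of 0.829. Of 16 pairs of member and group examined 1 was so marked, and chance marks about 1 in 20. Inmt was not examined in this way, since its levels in the chow libraries numbered 4 had led to its choice.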

How the results depend on the processing

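Across 28 alternatives, 16 of which left out 1 library, Gamt and Nnmt were called lower on MCD in both genotypes every time. Of 558 values for single members under an alternative 524 counted as kept, 0 lost a call, 4 gained one and 30 changed sign, of which 18 came from leaving out 1 library. A kept fold had the same sign and the same side of the threshold. The 524 include the Inmt mean of each chow group on the deposited TMM scale, kept when it moved by less than 1 SD. The 4 that gained one were the diet folds of As3mt with library totals alone and of Tpmt with the transcript length index, given above. The cause of the sign changes was not tested.

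With library totals alone the Tpmt diet fold was 0.54 in the knockout and 0.39 in the wild type, the Gamt fold of knockout over wild type on chow was -0.0126, and the Tpmt difference of the diet effects was 0.15. That last value was 0.0214 with upper quartile factors. The As3mt diet fold in the wild type was -0.0345 when both chow libraries numbered 4 were left out, -0.0037 when all 4 libraries of that number were, -0.0342 when the 3 libraries that stood apart were, and -0.0063 once the model held the index. The Nnmt fold of knockout over wild type on MCD was -0.16 with the index and -0.14 without the 3 libraries, and that of Gamt was 0.0069 without the 4 libraries numbered 4.

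Leaving out 1 library at a time, the As3mt diet fold in the wild type ranged from -0.0342 to 0.0848. The knockout over wild type fold on MCD ranged from -0.14 to 0.48 for Nnmt and from -0.18 to 0.0484 for Gamt. The difference of the diet effects ranged from -0.94 to 0.0837 for Nnmt, from -0.21 to 0.10 for Tpmt and from -0.0127 to 0.11 for As3mt. The folds that changed sign were not called in any of those settings.

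With the replicate number as a block 2 of the 4 members were again called lower in each diet comparison and 0 in the others, with Nnmt at -2.44 in the knockout and -2.01 in the wild type. The deviations of same-numbered libraries correlated at -0.38 to 0.51, highest between the library labelled knockout chow 4 and wild type chow 4. These values cannot show whether same-numbered libraries shared a batch. Over all genes the block gave 4239 and 3652 calls for the diet against 4514 and 3809 without it. For the knockout over the wild type on chow the call count over all genes was 1, against 14 with DESeq2, 13 without both chow libraries numbered 4 and 516 without the 3 libraries that stood apart. For the diet in the knockout it was 4514 against 6853 with library totals alone. The difference of the diet effects had 0 calls, and 20 without those 3 libraries. The planned index with an earlier session's gene lists was not run, and lists chosen after seeing the data took its place. Depth limits Inmt outside the chow libraries numbered 4, where no library had more than 12 counts, and Hnmt.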
